A study of Homo sapiens with 9 samples.

Results

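The genes described here are 40 genes of ribosome synthesis, 12 that transcribe the ribosomal DNA (rDNA) with RNA polymerase I (Pol I) and 28 that process the ribosomal RNA (rRNA) precursor and assemble the ribosomal subunits. They were chosen by symbol, as genes of the step at which the PHF6 protein is known to act and of the steps that follow it, out of 19722 genes with a named probe on the array. Each gene was read from its brightest probe over all arrays, so that 40 of 50 probes were used, and all 40 were well above background on 9 of 9 arrays. No value was missing or imputed.

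RNA came from ALL-SIL, a human T cell acute lymphoblastic leukemia (T-ALL) line, and was hybridised to 9 1-colour Agilent arrays of a custom design. Each sample had received by electroporation either a control siRNA or siRNA1 or siRNA2 against *PHF6*, and each group held 3 samples, numbered replicate 1 to 3 in the labels. The controls were electroporated too, and all samples come from 1 line. Collection was 96 h after electroporation in most labels and 72 h in a free-text description. The labels call the replicates biological and independent, and the same numbers recur in the 3 groups.

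PHF6 is a nuclear and nucleolar protein with a pair of imperfect PHD zinc fingers, is often lost by mutation in T-ALL, and is known to bind UBF, the product of *UBTF*, and to affect rRNA synthesis. In the nucleolus UBF and selectivity factor SL1 mark the rDNA promoter, *RRN3* brings Pol I to it, and *TTF1* ends transcription. The precursor transcript is then modified by small nucleolar ribonucleoproteins (snoRNPs), cut by the small subunit processome, and built into the subunits by assembly factors. Growing leukemic cells make many ribosomes, and MYC is known to drive many of these genes through the E-box, a short element in their promoters.

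Every value below is a normalized log2 intensity, fitted to all arrays by variance stabilising normalization (VSN), and every fold change is a difference of such values, *PHF6* siRNA minus control. *PHF6* itself was at 11.06, 11.16 and 10.85 in the control replicates 1 to 3, at 9.39, 9.68 and 9.11 with siRNA1, and at 9.20, 9.27 and 9.13 with siRNA2. All 6 siRNA samples were below all 3 controls. The log2 fold change of both siRNAs against control was -1.73 ± 0.14 (SE, n = 6 against 3, limma adjusted p = 0.002277), with -1.63 for siRNA1 and -1.82 for siRNA2. In such bulk samples fewer cells that carry an RNA and less of it per cell cannot be told apart, and since the arrays were set to a common scale, a change in total RNA per cell does not show in any value here.

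The cells carried T lineage RNA, with 15 of 15 markers well above background on all arrays, and 3 of 6 B lineage, 2 of 6 myeloid, 3 of 4 erythroid and 1 of 4 stromal markers also were. *BLK*, *CD33*, *HBB*, *COL1A2* and *COL3A1* were above background on 0 arrays. The summed T lineage level was 17.61 to 17.81 in control samples, 17.52 to 17.66 with siRNA1 and 17.52 to 17.58 with siRNA2. *CD3D*, the brightest of these markers, weighs most in that sum, and single markers moved more. Their log2 fold changes ran from -0.76 to 0.71, with 12 of 15 lower. In the fit with the replicate number, described below, 2 of them were called lower and 0 higher (2.89% of all probes called in either direction). The summed levels of the other lists overlapped between groups for the myeloid, erythroid and stromal markers. The B lineage sum was 12.53 to 12.96 in controls, 12.34 to 12.66 with siRNA1 and 12.25 to 12.49 with siRNA2, and the part of these shifts in the results below was not tested. Between 29662 and 33736 probes were well above background per array. Replicates 1 and 2 of every group lay on slide 1 and replicate 3 on slide 2.

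Promoter sequence is shown first, since the genes of rRNA processing had fold changes of the same sign, described below, and motif counts are given for them and for the Pol I machinery. RefSeq promoter windows (GRCh38.p14, 250 bases before to 50 after the start site) were matched for 34 of the 40 genes, and *POLR1E*, *NOP58*, *BOP1*, *RRP1B*, *RRS1* and *NOLC1* had none. The E-box, CACGTG, reads the same on both strands. It was in 11 of 23 windows of the processing and assembly genes (47.8%), in 0 of 11 of the Pol I machinery and in 7.4% of all 27305 windows (8.9% of the 15324 of genes with a probe). Of the 5 E-box genes with an unadjusted p under 0.05 in the blocked fit described below, the motif is shown in capitals with up to 10 bases on each side, 5′ to 3′ on the strand of the gene.
RRP9 (chr3:51941894-51941919, minus strand): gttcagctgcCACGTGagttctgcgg
NAT10 (chr11:34105604-34105629, plus strand): tgcgcttgcgCACGTGctgtctacca
WDR43 (chr2:28894660-28894685, plus strand): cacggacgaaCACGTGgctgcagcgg
BYSL (chr6:41921517-41921542, plus strand): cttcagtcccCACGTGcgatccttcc
PES1 (chr22:30591882-30591907, minus strand): cttggcagggCACGTGcgggaggaag
The other 6 genes with the motif were *UTP20*, *EBNA1BP2*, *FBL*, *NOP2*, *NOP14* and *UTP4*. Its first base lay between positions -16 and 36 from the start site in all but *EBNA1BP2*, where it was at -237. Processing and assembly genes with and without the motif had median log2 fold changes of -0.23 and -0.22, and a role of the motif in them was not tested.

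The core of the ETS motif, CCGGAAG on either strand, had the other distribution. It was in 8 of 11 windows of the Pol I machinery (72.7%), in 6 of 23 of the processing and assembly genes (26.1%) and in 10.7% of all windows (14.5% of those of genes with a probe). The match nearest the start site is shown in capitals for both Pol I subunits that hold it and for the 4 TAF1 subunits of SL1.
POLR1B (chr2:112541900-112541926, plus strand): ggcctccagtCCGGAAGatgcgacgag
POLR1C (chr6:43516955-43516981, plus strand): aaagcaacttCCGGAAGctggggacgt
TAF1A (chr1:222589916-222589942, minus strand): ccagaagtcaCTTCCGGggtcgaggcg
TAF1B (chr2:9843447-9843473, plus strand): gcgtttccggCCGGAAGcttctccagc
TAF1C (chr16:84187046-84187072, minus strand): gcaggaggcaCTTCCGGtccaaaccgg
TAF1D (chr11:93741544-93741570, minus strand): cgccttcttcCCGGAAGctaagttgta
A pair of further motifs was near its background. The NRF1 palindrome (both strands) was in 1 of 34 windows (2.9%, against 1.4% of all windows), and YY1 (AAGATGGC, both strands) was also in 1 of 34 (2.9%, against 3.0%). No match of a motif overlapped one of another motif. A match says only that these letters stand in this window.

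With *PHF6* siRNA, no gene of the 40 passed the threshold of an adjusted p under 0.05 in any of the 4 comparisons, and their values leaned low. Of the 40 genes, 34 had a lower mean with both siRNAs than in control and 6 a higher one, with a median log2 fold change of -0.18 and a range of -0.41 to 0.10. Over 25 settings of the processing the count that was lower was 31 to 38 and the median -0.25 to -0.11. Within the 40, the lean lay in the 28 genes of processing and assembly. All 28 were lower, with a median of -0.24 (-0.30 to -0.16 over the settings). The 12 genes of the Pol I machinery split into 6 lower and 6 higher with a median of -0.01 (-0.07 to 0.03). Under normexp background correction *NOP58* was above 0, without control replicate 1 *UTP4* was, and with the replicate block and without replicate 2 *DKC1* was. Where a gene had further probes, these did not show the split. In the Pol I machinery they gave -0.28 (*POLR1C*), -0.16 (*POLR1D*), -0.14 (*TAF1A*), -0.16 (*TTF1*), and 0.07 and 0.10 (*RRN3*). In processing and assembly they gave -0.07 (*NOP56*), -0.05 (*NOP14*), and -0.07 and -0.22 (*NPM1*). With probes averaged, the medians were -0.02 for the Pol I machinery and -0.24 for processing and assembly. The difference between the Pol I machinery and the processing and assembly genes was not tested. Further genes of the pathway, described below, did not all split in this way. Of further Pol I subunits and rDNA transcription factors 13 of 15 were lower (median -0.15), and of further snoRNP genes 10 of 16 (median -0.04). Further small and large subunit genes were lower in 42 of 47 and 44 of 48.

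Part of a lean to lower values was shared by other genes of this brightness. Of all 33584 probes tested, 50% were lower, and so were 58.9% of the 14677 genes with a tested probe. Of the 8027 genes whose mean level lay in the range of the 40 (9.05 to 17.15), 68.8% were lower, with a median of -0.06. They are called genes of the same brightness here, and were not matched to the 40 within that wide range. In these same genes 74.7% were lower with siRNA1 and 58.3% with siRNA2, and of the 40 genes 35 were lower with siRNA1 (median -0.17) and 34 with siRNA2 (median -0.18).

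**Figure D1:**
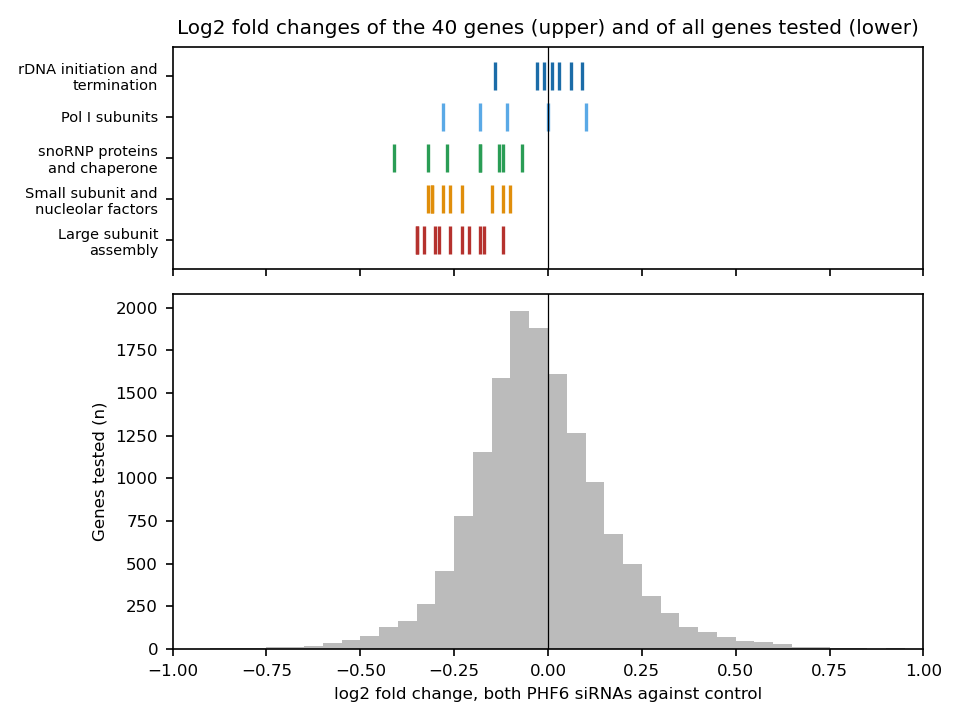
Upper panel, the log2 fold change of both PHF6 siRNAs against control for each of the 40 genes, 1 vertical mark a gene, in rows by role. Lower panel, a histogram of the same quantity for the 14677 genes tested, in number of genes. All 28 marks of the lower 3 rows lie left of 0, although NOP58, UTP4 or DKC1 lies right of it under another setting, and the upper 2 rows lie on both sides, with a median whose sign depends on the setting.

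Tests of single genes were made in limma over all 33584 probes. Without the replicate number in the fit, 0 of the 40 genes were called for both siRNAs against control (lowest limma adjusted p = 0.6451), where 0.00893% of all probes were (3 probes). For siRNA1 the count was 0 (0.00893% of all probes, lowest limma adjusted p = 0.8338), for siRNA2 0 (0.0119%, 0.8205) and for siRNA2 against siRNA1 0 (0.0119%, 1.0). At an unadjusted p under 0.05, 4 of the 40 were lower (*NOLC1*, *RRP9*, *GNL3* and *NCL*) and 0 higher, where 3.4% of all probes were lower and 4.03% higher. Among the 8027 genes of the same brightness, 416 were lower and 83 higher. For the 40 genes the count was 12 without siRNA2 replicate 3, 6 without control replicate 2 and 2 without siRNA1 replicate 1. It was 1 without replicate 2 of siRNA1 or of siRNA2, and 0 without control replicate 1 or 3. It was also 0 under scaling to the 75th percentile and 0 under normexp with quantile normalization, and 11 with the slide as a block.

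Samples of the same replicate number deviated together, so the fit was also made with that number as a block. With the block, 0 of the 40 genes were called for both siRNAs (lowest limma adjusted p = 0.05326, for *NOLC1*), where 2.89% of all probes were. For siRNA1 the count was 0 (0.977% of all probes, lowest limma adjusted p = 0.0889), for siRNA2 0 (1.77%, 0.05724) and for siRNA2 against siRNA1 0 (0.0387%, 0.4309). At an unadjusted p under 0.05, 15 of the 40 were lower and 0 higher, where 9.51% of all probes were lower and 12.4% higher, and 1100 of the 8027 genes of the same brightness were lower. Of the 15 genes, 1 was of the Pol I machinery (*POLR1B*), 2 were snoRNP factors, 5 small subunit or nucleolar factors and 7 large subunit factors. Calls near the threshold depended on the setting, always with the block. *NOLC1* was called for both siRNAs with normexp and quantile normalization (log2 fold change -0.33, limma adjusted p = 0.04658), with the deposited normalized table (-0.41, 0.04652) and among the probes above background on all 9 arrays (-0.41, 0.03452). *RRP9* was called in the first of these (-0.28, 0.04707) and in the last (-0.32, 0.04584), and all probes were called at 3.87%, 2.58% and 6.05% in the 3 settings.

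**Figure D2:**
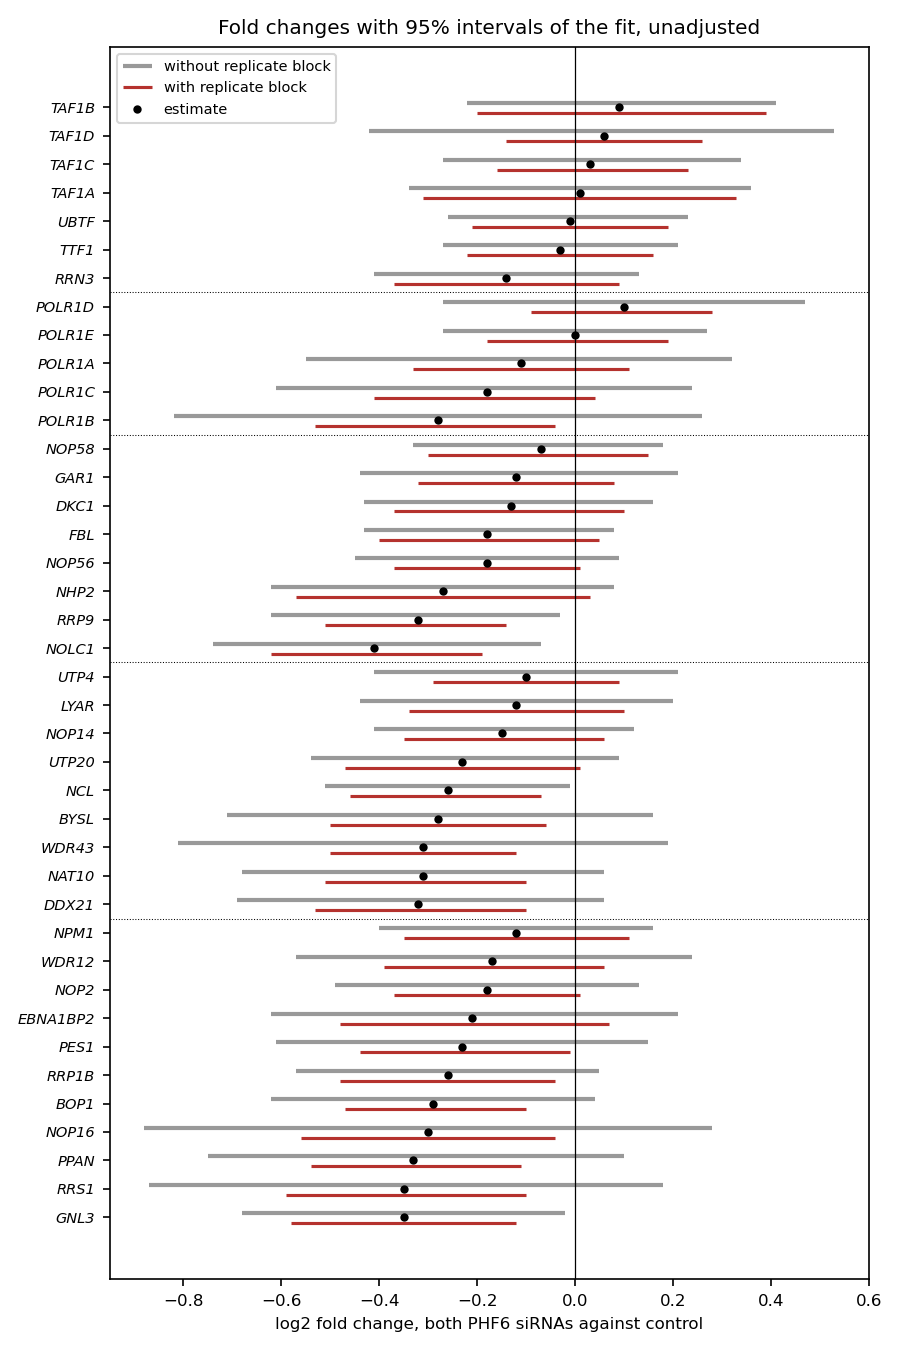
For each of the 40 genes, in order of role and value, the log2 fold change of both PHF6 siRNAs against control (point) with its unadjusted 95% interval from limma, without (grey) and with (red) the replicate number as a block. The grey intervals lie wholly below 0 for 4 genes (NOLC1, RRP9, GNL3 and NCL) and the red ones for 15, and every other interval includes 0.

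The 7 factors that open and close rDNA transcription had fold changes between -0.14 and 0.09, with a median of 0.01. *UBTF*, which encodes the architectural factor UBF of the rDNA promoter, was at 9.92, 9.90 and 9.86 in control replicates 1 to 3, at 9.87, 9.66 and 9.93 with siRNA1 and at 10.03, 9.94 and 9.85 with siRNA2. The groups overlapped, with a log2 fold change of -0.01 ± 0.11 (SE) and a 95% interval of -0.26 to 0.23. *RRN3*, whose product carries Pol I to the promoter, was at 9.58, 9.79 and 9.60 in control, at 9.41, 9.34 and 9.49 with siRNA1 and at 9.70, 9.40 and 9.75 with siRNA2. Each siRNA1 sample was below each control and the siRNA2 samples overlapped with the controls, for a fold change of -0.14 (95% interval -0.41 to 0.13). The other probes of *RRN3* gave 0.07 and 0.10, and since near-identical copies of *RRN3* lie in the genome, the source of its signal is uncertain.

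The SL1 subunits *TAF1A*, *TAF1B*, *TAF1C* and *TAF1D*, which bind the promoter together with the TATA-binding protein, had log2 fold changes of 0.01, 0.09, 0.03 and 0.06. The other probe of *TAF1A* gave -0.14. *TAF1B* was at 10.72, 11.13 and 10.65 in control, at 10.83, 10.80 and 10.80 with siRNA1 and at 11.24, 10.81 and 11.09 with siRNA2. Control replicate 2 was above every sample but siRNA2 replicate 1, so that in replicate 2 both siRNAs were lower than control and in replicates 1 and 3 both were higher. *TAF1D* was at 11.72, 12.50 and 12.34 in control, at 11.81, 12.58 and 12.21 with siRNA1 and at 12.03, 12.56 and 12.28 with siRNA2. Its samples differed by replicate number more than by siRNA, and its fold change became -0.17 without control replicate 1. *TTF1*, the termination factor, had a fold change of -0.03 (95% interval -0.27 to 0.21), and its other probe gave -0.16.

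Among the 5 subunits of Pol I, those measured with the lowest fold change were *POLR1B* and *POLR1C*. *POLR1A*, which encodes the largest subunit with the catalytic centre, was at 9.02, 9.04 and 9.32 in control, at 8.99, 8.72 and 9.50 with siRNA1 and at 8.92, 8.62 and 9.33 with siRNA2, which overlapped (log2 fold change -0.11, 95% interval -0.55 to 0.32). *POLR1B*, for the second largest subunit, was at 9.23, 9.30 and 9.71 in control, at 9.07, 8.77 and 9.61 with siRNA1 and at 9.03, 8.62 and 9.67 with siRNA2. All 6 siRNA samples were below the control of their own number, yet replicate 3 was above replicates 1 and 2 in every group. Its fold change was -0.28 ± 0.24 (SE), with a limma adjusted p of 0.8352 without and 0.1674 with the block.
*POLR1C* and *POLR1D* encode a dimer that Pol I shares with Pol III. *POLR1C* was at 11.92, 11.78 and 12.07 in control, at 11.68, 11.43 and 12.01 with siRNA1 and at 11.75, 11.35 and 12.23 with siRNA2, lower than its own control in 5 of 6 samples (log2 fold change -0.18, 95% interval -0.61 to 0.24). The other probe of *POLR1C* gave -0.28 (limma adjusted p = 0.8385 without and 0.1049 with the block). *POLR1D* was at 12.51, 12.65 and 12.12 in control, at 12.55, 12.54 and 12.21 with siRNA1 and at 12.80, 12.74 and 12.28 with siRNA2. It had the highest fold change of the 40 genes, 0.10 (95% interval -0.27 to 0.47), while its other probe gave -0.16, and neither value was past the threshold. *POLR1E*, for a subunit that works with *POLR1G* in elongation, was at 10.12, 9.90 and 9.87 in control, at 10.09, 9.90 and 9.98 with siRNA1 and at 10.12, 9.77 and 9.92 with siRNA2, with a fold change of 0.00 (95% interval -0.27 to 0.27).

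**Figure D3:**
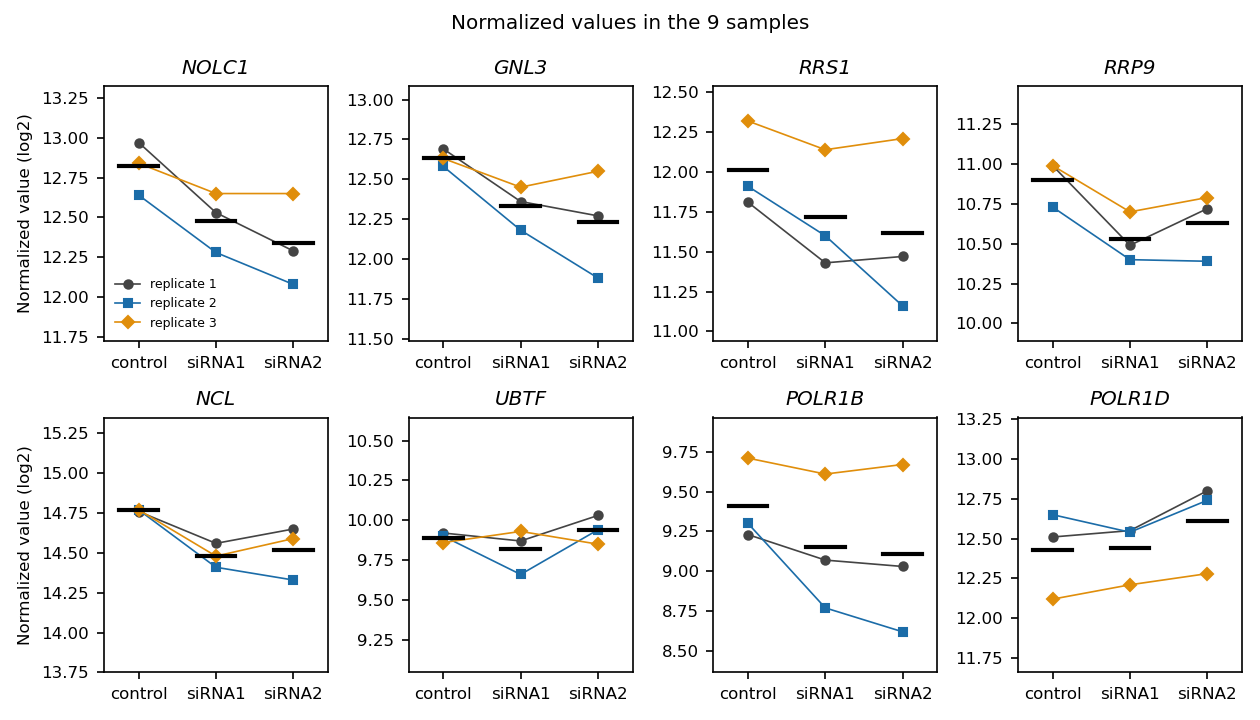
Normalized log2 values of 8 of the genes in the 9 samples, 1 panel a gene with its own range of values, a point per sample, a line per replicate number and a black bar at the mean of each group. The lines of NOLC1, GNL3, RRS1, RRP9 and NCL run from higher control values to lower siRNA values in all 3 replicate numbers, those of UBTF and POLR1D do not, and replicate 3 is the highest in RRS1 and POLR1B and the lowest in POLR1D.

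All 8 snoRNP genes had negative fold changes, apart from *NOP58* and *DKC1* under the settings named above, with a median of -0.18. *NOLC1*, for the chaperone Nopp140 that accompanies snoRNPs to the nucleolus, had the lowest of the 40 genes. It was at 12.97, 12.64 and 12.84 in control, at 12.53, 12.28 and 12.65 with siRNA1 and at 12.29, 12.08 and 12.65 with siRNA2. All 6 siRNA samples were below their own control, although both siRNA samples of replicate 3 lay just above control replicate 2. The log2 fold change was -0.41 ± 0.15 (SE; 95% interval -0.74 to -0.07), with -0.33 for siRNA1 and -0.48 for siRNA2, and it was -0.51 to -0.33 over the 25 settings. *RRP9*, for the protein particular to the U3 snoRNP that guides the first cuts of the precursor, was named after its values were seen. It was at 10.99, 10.73 and 10.99 in control, at 10.49, 10.40 and 10.70 with siRNA1 and at 10.72, 10.39 and 10.79 with siRNA2, with all 6 siRNA samples below their own control (log2 fold change -0.32, limma adjusted p = 0.6519 without and 0.06707 with the block).
The core proteins of the box C/D snoRNPs, which methylate rRNA, gave -0.18 for the methyltransferase *FBL*, -0.18 for *NOP56* and -0.07 for *NOP58*. Those of the H/ACA snoRNPs, which make pseudouridine, gave -0.13 for the synthase *DKC1*, -0.12 for *GAR1* and -0.27 for *NHP2*.

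The 9 small subunit and nucleolar genes were also all negative, apart from *UTP4* without control replicate 1, with a median of -0.26. *NCL*, named after its values were seen, for the abundant nucleolar protein nucleolin, was at 14.76, 14.77 and 14.77 in control, at 14.56, 14.41 and 14.48 with siRNA1 and at 14.65, 14.33 and 14.59 with siRNA2. The groups did not overlap, and the log2 fold change was -0.26 ± 0.11 (SE, limma adjusted p = 0.6608 without and 0.1217 with the block). *NCL* and *GNL3* were the only genes of the 40 whose siRNA samples were all below all controls, where 2.05% of all probes were. None of the 40 genes lay wholly above, where 1.87% of all probes did. Among the 8027 genes of the same brightness, 323 lay wholly below and 32 wholly above.
The helicase gene *DDX21* (-0.32), *WDR43* of the processome (-0.31), the rRNA acetyltransferase gene *NAT10* (-0.31) and *BYSL* of late small subunit assembly (-0.28) were below their own control in 6 of 6 siRNA samples. The processome genes *UTP20*, *NOP14* and *UTP4* gave -0.23, -0.15 and -0.10, and *LYAR* gave -0.12.

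All 11 large subunit genes were negative under each of the 25 settings, with a median of -0.26. *RRS1*, for a factor that brings a small ribonucleoprotein into the precursor, was at 11.81, 11.91 and 12.32 in control, at 11.43, 11.60 and 12.14 with siRNA1 and at 11.47, 11.16 and 12.21 with siRNA2. Replicate 3 was the highest in each group and all 6 siRNA samples were below their own control, for a log2 fold change of -0.35 ± 0.24 (SE; 95% interval -0.87 to 0.18). *GNL3*, for the nucleolar GTPase nucleostemin, was at 12.69, 12.58 and 12.63 in control, at 12.36, 12.18 and 12.45 with siRNA1 and at 12.27, 11.88 and 12.55 with siRNA2. The groups did not overlap (log2 fold change -0.35 ± 0.15, SE, limma adjusted p = 0.6538 without and 0.09276 with the block).
*PES1*, *BOP1* and *WDR12*, whose products form a complex needed for the large subunit rRNA, gave -0.23, -0.29 and -0.17. *PPAN* gave -0.33, but its transcript can read through into a neighbouring receptor gene, so its signal is uncertain. The assembly genes *NOP16*, *RRP1B* and *EBNA1BP2* gave -0.30, -0.26 and -0.21, the methyltransferase gene *NOP2* -0.18 and *NPM1*, for the histone and ribosome chaperone nucleophosmin, -0.12. *NPM1* has near-identical pseudogenes and is uncertain for that reason.

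The means of the 3 replicate numbers spanned a median of 0.34 per gene from lowest to highest. This was more than the size of the fold change, 0.18 at the median, in 31 of the 40 genes. These are unlike measures, since a span over 3 means tends to exceed a single difference of means under the same noise. The share over all genes was not counted. The SD within groups was 0.09 to 0.46 with a median of 0.21, and 15 genes had a fold change larger than it. The highest mean was in replicate 3 for 26 genes, in replicate 1 for 10 and in replicate 2 for 4. For these counts, too, the share over all genes was not counted, so they cannot be called particular to the 40 genes. The SE of the fold change was 0.11 to 0.26 (median 0.15) without the block and 0.08 to 0.14 (median 0.10) with it.

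Set against the control of the same number, the 40 genes were lower in every replicate, though not equally. The median difference was -0.15 in replicate 1, with 31 of 40 genes lower, -0.35 in replicate 2, with 37 lower, and -0.10 in replicate 3, the only one on slide 2, with 26 lower. The processing and assembly genes gave -0.21, -0.37 and -0.14, with 25, 27 and 24 of 28 lower. The Pol I machinery gave 0.01, -0.21 and 0.07, with 6, 10 and 2 of 12 lower, so its direction differed between replicates. All genes of the same brightness gave -0.04, -0.14 and -0.01, with 57.3%, 75.6% and 52.6% lower. In 14 of the 40 genes all 6 siRNA samples were below their own control, as in 10.8% of all probes and 18.6% of the genes of the same brightness. All 6 were above it in 0 of the 40, where they were in 10.8% of all probes and in 369 of the 8027 genes of the same brightness.

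**Figure D4:**
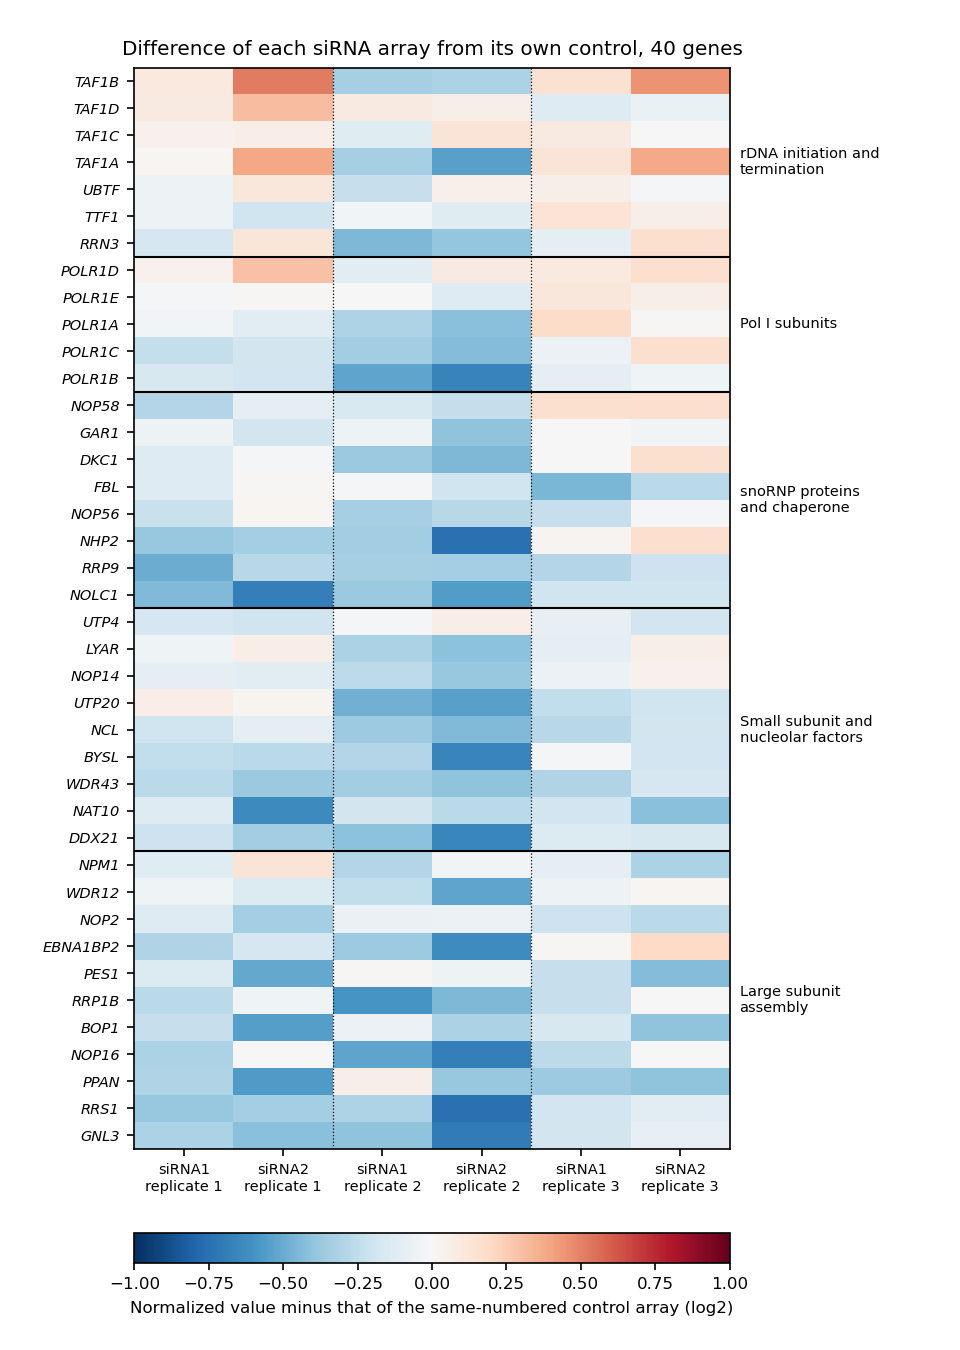
Each of the 40 genes (rows, by role) in each of the 6 siRNA samples (columns), as the normalized log2 value minus that of the control sample of the same number, blue for lower and red for higher. Replicate 2 holds the deepest blue. In replicate 3 the upper 12 rows, the Pol I machinery, hold more red than blue, with 4 of 12 lower with siRNA1 and 4 of 12 with siRNA2. On the mean of both siRNAs 2 of 12 were lower there.

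Both siRNAs gave like counts, and no difference between them passed the threshold. At an unadjusted p under 0.05, 2 of the 40 genes were lower with siRNA1 (2.56% of all probes) and 4 with siRNA2 (2.95%), and with the block 10 (8.43%) and 14 (8.49%). Among the 8027 genes of the same brightness, 314 were lower with siRNA1 and 333 with siRNA2, and with the block 1044 and 879. The difference siRNA2 minus siRNA1 had a median of -0.01. Its unadjusted p was under 0.05 in 0 of 40 genes without the block, where it was in 2.5% of all probes. With the block, 3 of 40 genes had an unadjusted p under 0.05, where 9.75% of all probes did in either direction. The 3 genes were *BOP1*, *NAT10* and *PPAN*, named after their values were seen. Each was lower with siRNA2 than with siRNA1, by -0.28, -0.28 and -0.25 (limma adjusted p = 0.4309, 0.4697 and 0.5106). In this lower direction 1484 of 33584 probes and 113 of the 8027 genes of the same brightness had an unadjusted p under 0.05. Against control *BOP1*, *NAT10* and *PPAN* gave -0.15, -0.17 and -0.20 with siRNA1 and -0.42, -0.45 and -0.45 with siRNA2. For siRNA2 all 3 were called, together with *NOLC1*, under the block with normexp (2.75% of all probes) or among the probes above background on all arrays (3.7%). Both comparisons with control share the same 3 control samples.

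Fold changes of genes with and without an E-box in the window overlapped. Of the 23 processing and assembly genes with a window, the 11 with an E-box had a median log2 fold change of -0.23 and a range of -0.32 to -0.10, and the 12 without had -0.22 and -0.35 to -0.12. *MYC* was at 14.08, 14.12 and 14.31 in control, at 13.71, 13.42 and 14.17 with siRNA1 and at 14.09, 13.27 and 14.57 with siRNA2. It was below its own control in 4 of 6 samples and the groups overlapped, with a log2 fold change of -0.30 ± 0.26 (SE, limma adjusted p = 0.8329 without and 0.2768 with the block).

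Other genes of the pathway, in 6 lists, gave 0 calls without the block and 2 with it. Both were lost with the block under scaling to the 75th percentile, and also when any of the 3 replicate numbers was left out (0 calls in each). Of 15 further Pol I subunits and rDNA transcription factors, 13 were lower, with a median of -0.15, and both calls were in this list. *POLR1G*, the partner of *POLR1E*, was at 9.83, 9.25 and 9.66 in control, at 9.45, 8.90 and 9.55 with siRNA1 and at 9.17, 8.67 and 9.31 with siRNA2. All 6 siRNA samples were below their own control, for a log2 fold change of -0.40 (limma adjusted p = 0.7109 without and 0.0415 with the block). *POLR2L*, a small subunit common to the nuclear RNA polymerases, was at 14.83, 14.75 and 14.81 in control, at 14.28, 14.39 and 14.61 with siRNA1 and at 14.23, 14.01 and 14.55 with siRNA2. The groups did not overlap, and the log2 fold change was -0.45 (limma adjusted p = 0.6438 without and 0.04472 with the block).
The median fold changes of the other 5 lists ran from -0.16 to -0.04. Further small subunit processome genes were lower in 42 of 47 (median -0.16, 1 of the list of 48 without a probe), and further large subunit genes in 44 of 48 (median -0.13), with 0 called for both siRNAs in each. With siRNA1 alone and the block, *SENP3*, a SUMO protease of large subunit maturation named after its values were seen, was called (log2 fold change -0.53, limma adjusted p = 0.04582). Exosome and RNase MRP subunits, which trim and cleave the precursor, were lower in 18 of 25 (median -0.13). In snoRNP core and assembly genes 10 of 16 were lower and in chromatin regulators of the rDNA 10 of 18, each with a median of -0.04, and 0 were called in these 3 lists with or without the block.

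**Figure D5:**
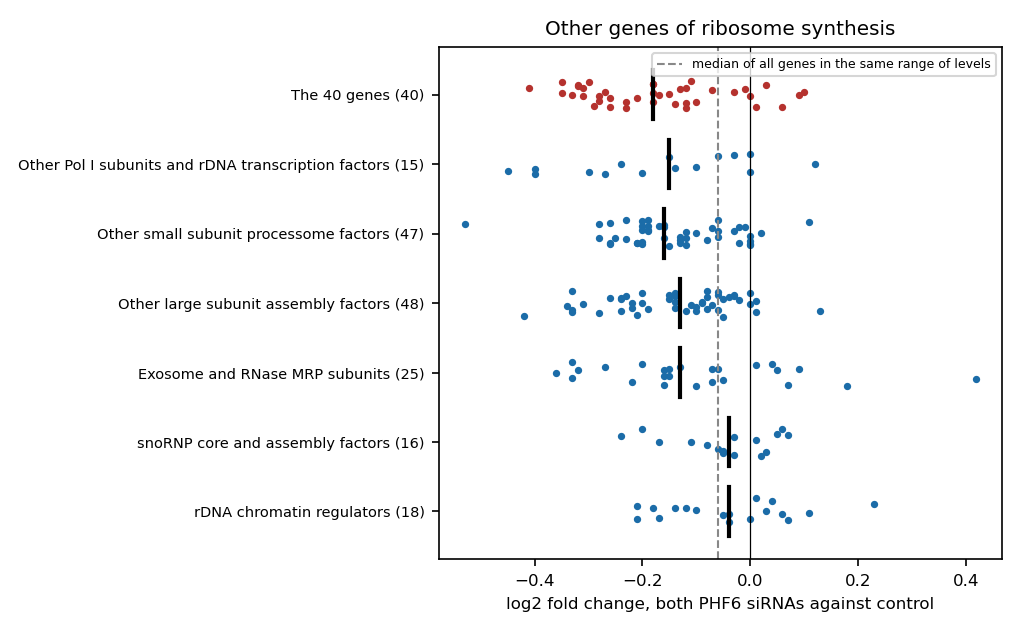
The log2 fold change of both PHF6 siRNAs against control (horizontal axis), a point per gene, for the 40 genes (red) and 6 other lists of ribosome synthesis (blue, number of genes in brackets), with a black bar at the median of each list and a dashed line at -0.06, the median of all genes of the same brightness. The bars run from -0.18 for the 40 genes to -0.04 for the snoRNP core and rDNA chromatin lists.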

How the data were processed

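RNA of 9 ALL-SIL samples was measured on 1-colour arrays. The authors deposited the fluorescence intensity of each spot from Agilent Feature Extraction (version 9.1 in the labels, 10.5.1.1 in the file headers), not normalized between arrays, with flags of 0 or 1 for spots that are outliers, saturated or well above background. VSN-normalized log2 values of the same arrays, made and deposited by the authors, were used here as an alternative (r = 0.9941 to 0.9992 with the values below). The intensity that entered it is not given in the sources used here.

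The median spot intensity was normalized by code written here for the VSN model (7 iterations, trimming quantile 0.9), tested on simulated data, after outlier spots were left out and spots of a probe averaged. Probes whose flag was above background on 3 or more arrays entered limma 3.58.1 (R 4.3.3) with 3 group means over all 9 arrays and Benjamini-Hochberg adjustment over 33584 probes, at a threshold of 0.05. Symbols came from matching transcript identifiers to RefSeq. Array depth has no count, so precision rests on the number of arrays.

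The 40 genes, the 6 other lists and the marker lists were chosen with earlier results of these data known. Values in every sample are given for *PHF6*, *UBTF*, *RRN3*, the Pol I subunits, genes past the threshold with or without the block, and the 3 highest and 3 lowest fold changes of the 40. Genes named beyond this rule, *RRP9*, *NCL* and *MYC* among them, were chosen after their values were seen.

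Deviations from the group means correlated at r = 0.31 to 0.75 in the 9 sample pairs that share a replicate number in the labels (median 0.60) and at -0.57 to 0.13 in the 18 others, so the numbers pair the samples. Alternatives were the replicate or the slide as a block, scaling to the 75th percentile of the processed signal, normexp with an offset of 50 and quantile normalization, the deposited table, dropping the filter or asking it of all 9 arrays, averaging the probes of each gene, and leaving out each sample.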

Additional observations from a re-analysis of the deposited data

How the results depend on the processing

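*PHF6* was called in all 24 settings run for it, at -1.81 to -1.61, and the mean of probes was not run for it. The number of the 40 genes called for siRNA1, or for siRNA2 against siRNA1, was 0 under all settings. For both siRNAs the count was 0 except, with the replicate block, under normexp (2), the deposited table (1) and the filter on all 9 arrays (2), and for siRNA2 it was 4 under the first and 4 under the last of these. In the other lists the genes called numbered 0 without the block, 2 with it, 5 with it and normexp, 2 with it and the deposited table, 5 with it and the filter on all 9 arrays, 0 with it and the 75th percentile and 0 with it and without replicate 1, 2 or 3.

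The count of probes called moved most, from 3 without the replicate block to 970 with it. It was 5 under the 75th percentile, 5 under normexp, 24 with the slide as a block and 2 to 3 when a sample was left out. With the replicate block it was 63, 6 and 728 without replicate 1, 2 or 3, 272 under the 75th percentile, 1297 under normexp, 868 in the deposited table and 1670 with the filter on all 9 arrays. Apart from the calls named here, the block changed no call in the 40 genes or the other lists for both siRNAs. The causes were not tested.

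A change of sign was seen in fold changes near 0 of genes that no setting called. Leaving out a sample gave -0.04 to 0.03 for *UBTF*, -0.06 to 0.21 for *POLR1D*, -0.04 to 0.08 for *POLR1E* and -0.17 to 0.21 for *TAF1D*. Without control replicate 1, *TAF1D* was -0.17. *POLR1E* was -0.02 under the 75th percentile, with or without the block, and -0.04 with the block and without replicate 3. *UBTF* was 0.02 under normexp, with or without the block, and 0.03 with the block and without replicate 2, where *POLR1A* was 0.01. With the block and without replicate 1, *TAF1D* was -0.01 and *TAF1B* -0.01, and without replicate 3 *TAF1B* was -0.01. With the mean of all probes *POLR1D* was -0.03 and *RRN3* 0.01. *TAF1A* was not above 0 with the mean of all probes or without control replicate 1, among other settings.

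With 3 samples per group the SE of the fold change had a median of 0.15 without the block and 0.10 with it, beside a median size of 0.18, and the unadjusted 95% intervals of 4 genes without the block and 15 with it lay below 0.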
